A study of Homo sapiens with 12 samples.

Results

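The 8 E2F transcription factor genes, E2F1 to E2F8, and the 2 E-type cyclin genes, CCNE1 and CCNE2, were examined in A498, a human renal carcinoma cell line, in which the fatty acid elongase genes ELOVL2 and ELOVL5 had been knocked down. These 10 genes, of 57773 in the deposited table, were chosen by family membership, and E2F5 and CCNE1 were singled out because earlier results on the same libraries showed them higher while genes of DNA replication were lower. All 10 passed the filter on low values, as did 18648 genes in all. The 4 groups of 3 biological replicates each were cells transfected with an siRNA against ELOVL2 (siELOVL2), with an siRNA against ELOVL5 (siELOVL5), with both siRNAs (double knockdown), or with a control siRNA. All 12 libraries carry 1 batch label and hold total RNA of transfected cells, so the controls share the transfection with the knockdowns. The siRNA sequences and the time between transfection and harvest were not given in the sources used here, and all results concern 1 cell line. Values are read counts after quantile normalization by the authors, called normalized counts here, and are given in replicate order 1, 2, 3.

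E2F factors bind a short GC-rich element in the promoters of genes for DNA synthesis and cell cycle progression. E2F1, E2F2 and E2F3 are the activators of the family and are held inactive by the retinoblastoma protein RB1, whereas E2F4 and E2F5 act mainly as repressors together with the RB relatives RBL1 and RBL2. E2F6 represses without RB family proteins, and E2F7 and E2F8 are the atypical repressors, which bind DNA without the dimer partner (TFDP1 or TFDP2) that the others need. Cyclin E1 and cyclin E2 bind and activate the kinase CDK2 at the entry into S phase, and their genes are themselves E2F targets.

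The knockdowns and the identity of the cells were checked first. ELOVL2 averaged 25.2 ± 6.05 normalized counts in siELOVL2 libraries, 228 ± 60.8 in those of siELOVL5 and 23.9 ± 3.53 in the double knockdown, against 269.9 ± 50.7 in control cells (SD, n = 3 each). ELOVL5 averaged 2038 ± 271, 148 ± 7.43 and 179 ± 7.5 in the same knockdown groups, against 1977 ± 53.2 in control cells. Each gene was thus low in exactly the groups whose label names it. All 9 kidney and renal carcinoma markers used (PAX8, PAX2, LHX1, CDH2, CDH6, KRT8, KRT18, VIM and CA9) were detected. Their sums were 28917.5 to 29770.4 normalized counts in siELOVL2, 28403 to 34762 in siELOVL5 and 26679 to 30865 in double-knockdown libraries, against 35992 to 36520 in controls. In the double knockdown 3 of the 9 lay above and 6 below control. CDH2 was called lower there (log2 difference -0.76, SE 0.08, adjusted p = 0.000177 by limma) and differed by -0.73 (SE 0.08) in siELOVL2 cells. Leukocyte markers summed to 18.8 to 58.1, fibroblast markers to 7.92 to 36.6 and endothelial markers to at most 7.17 over the 12 libraries, and CD3E and LUM stood at 0 in all of them. The part of this marker difference in the results below was not tested. Estimated depth was 6.70 to 10.68 M reads, which puts the lowest member values, those of E2F2 and E2F8, at about 44 reads. One library stood apart: siELOVL5 replicate 3 correlated least with its own group (mean r = 0.9779, against at least 0.9802 for the other 11 libraries). Differences of members that rest on it are given with and without it, whereas correlations between genes were taken with it only.

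The promoters are shown because 3 of the members, the activators, carry the element that E2F proteins themselves bind, close to the transcription start, while CCNE1, which was higher in 2 of the knockdowns, carries none of the searched words in its window. The sequences are from RefSeq (GRCh38.p14), and each covers 90 bases before the transcription start and 20 after it, read 5′ to 3′ on the gene's own strand. Capitals mark every E2F word found.
E2F1 (chr20:33686366-33686475, - strand): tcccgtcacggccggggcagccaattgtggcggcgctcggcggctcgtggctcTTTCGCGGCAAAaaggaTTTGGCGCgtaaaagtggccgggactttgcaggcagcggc
E2F2 (chr1:23531214-23531323, - strand): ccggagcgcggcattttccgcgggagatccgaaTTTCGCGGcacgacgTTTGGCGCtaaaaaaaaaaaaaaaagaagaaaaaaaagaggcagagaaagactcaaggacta
E2F3 (chr6:20401789-20401898, + strand): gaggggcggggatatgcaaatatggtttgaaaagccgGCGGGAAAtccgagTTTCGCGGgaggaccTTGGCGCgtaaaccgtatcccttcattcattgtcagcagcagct
CCNE1 (chr19:29811901-29812010, + strand): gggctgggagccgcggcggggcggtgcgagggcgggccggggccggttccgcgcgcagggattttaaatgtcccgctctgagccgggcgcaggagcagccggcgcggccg

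The words searched on both strands were TTTCCCGC, TTTCGCGC, TTTGGCGC and TTTGCCGC, their cores of 7 bases, which are the same words without the first T, and TTTCGCGG, a word added after the promoters had been read. In E2F1 the word TTTCGCGG begins at −37 from the transcription start, TTTGCCGC on the opposite strand overlaps it at −33, and TTTGGCGC begins at −20. E2F2 holds TTTCGCGG at −57 and TTTGGCGC at −42, and E2F3 holds TTTCCCGC on the opposite strand at −53, TTTCGCGG at −39 and the core of TTTGGCGC at −24. In all 3 activators TTTCGCGG is followed downstream by a GGCGC word. Since TTTCGCGG was picked from reading these promoters, its presence and this order are a description and not a test. Among 35116 RefSeq promoters of 300 bases, 3.31% held any of the 4 searched words of 8 bases, 13% held any core and 0.416% held TTTCGCGG. Of the 7 members with a promoter entry, E2F6 held a core on the opposite strand at +15, E2F7 held cores at −176 and −133, and no word was found in the windows of E2F4 and CCNE1 or in a second E2F3 window. CCAAT, found in 34.6% of promoters, occurred 3 times in the E2F1, 4 times in the first E2F3 and 4 times in the E2F7 window. A match is a match of letters only, and its absence says nothing of binding outside the window.

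The order of transcript levels per length in control cells was taken with the exon union of each gene in the GENCODE annotation as its length, since the authors' annotation was not given in the sources used here. Among the members, E2F5 lies on chromosome 8 (85177225 to 85217158, + strand), CCNE1 on chromosome 19 (29811898 to 29824308, + strand) and E2F8 on chromosome 11 (19224063 to 19241620, - strand) of GRCh38. E2F4, the repressor that is the most abundant E2F in many cell types, was highest at 167 ± 11.8 normalized counts per kb (SD, n = 3). E2F7 (103 ± 9.38), E2F3 (101 ± 1.68), E2F1 (88.2 ± 14.8) and CCNE1 (87.2 ± 9.62) followed, apart from E2F4 above and E2F6 below but with each pair of neighbours among them within its spread. E2F6 (55.7 ± 6.76) and E2F8 (30.2 ± 1.47) came next, each apart from its neighbours. CCNE2 (15.6 ± 1.31), E2F5 (14.8 ± 0.776) and E2F2 (14.7 ± 4.70) were lowest and overlapped. In siELOVL2 and double-knockdown cells the order of the means changed for several genes. CCNE1 stood at 123 and 129 per kb in siELOVL2 and double-knockdown cells, second only to E2F4 there, and E2F5 at 26 and 26.2 per kb, above E2F8 at 18.7 and 17.5. E2F7 stood at 78.1 and 69.5 per kb there, below E2F1 at 90.9 and 98.2.

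Across the family, CCNE1 was higher in cells with less ELOVL2, and E2F5 stood above control in all 3 knockdowns, least so in siELOVL5 cells. E2F8 stood below control in all 3 knockdowns and E2F7 in the double knockdown without passing the test. No difference of E2F1, E2F2, E2F3, E2F4, E2F6 or CCNE2 from control was called. Calls were made with limma on log2(normalized count + 1) over all tested genes, with a Benjamini-Hochberg adjusted p under 0.05. For siELOVL2 against control 1.36% of all tested genes were called, and 2 of the 10 members, E2F5 and CCNE1. This contrast was used in the choice, so for it nothing is read from that count and no p is given for a member. For siELOVL5 against control the share was 0.139% of all genes and 0 members, with 3 of the 8 members chosen by family alone (E2F3, E2F6 and E2F8) at an unadjusted p under 0.05, as were 9.56% of all genes. For the double knockdown against control it was 4.42% of all genes and 2 members, E2F5 and CCNE1. These 2 were selected on these 12 libraries, so nothing is read from that count either. Of the 8 others 0 were called, and 2 of them (E2F7 and E2F8) had an unadjusted p under 0.05, as did 18.8% of all genes. These 3 comparisons share the control libraries. The plot of each gene by library and the plot of the fold changes show the values that follow.

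**Figure D1:**
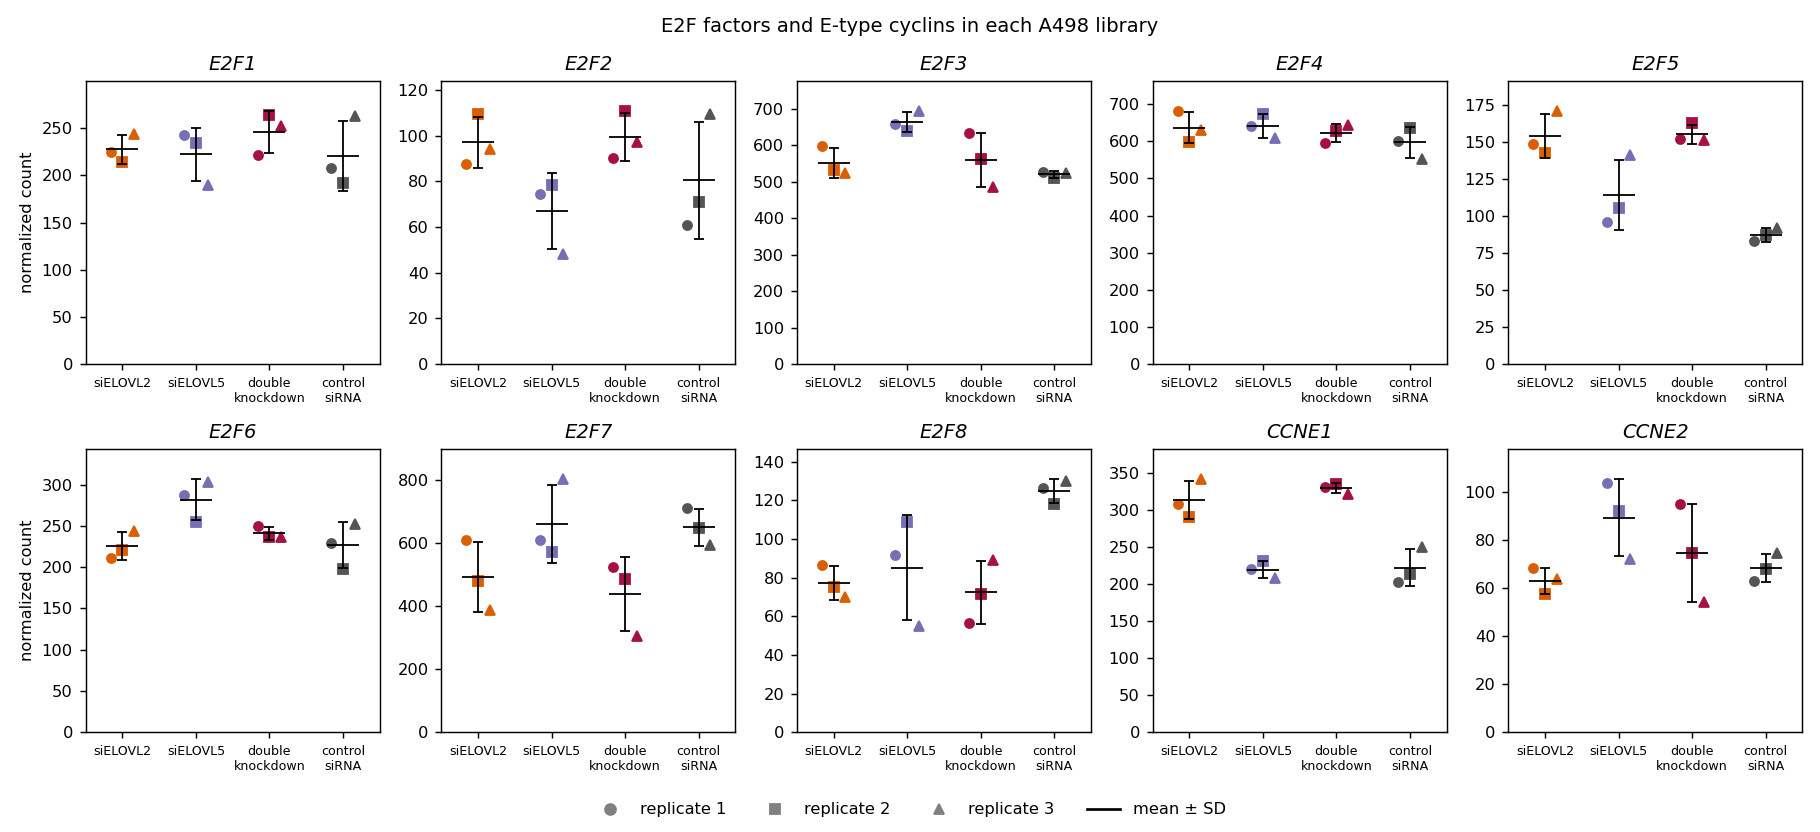
Normalized counts of the 10 genes in every library, with siELOVL2, siELOVL5, double knockdown and control siRNA from left to right; symbols mark the replicate and bars the mean ± SD (n = 3). E2F5 and CCNE1 stand higher in siELOVL2 and double-knockdown libraries than in control libraries without overlap, and E2F8 stands lower in all 9 knockdown libraries than in the 3 control libraries.

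Among the activators, E2F1 had 225, 214 and 244 normalized counts in the siELOVL2 libraries, 242, 235 and 189.8 in the siELOVL5 libraries and 221, 264 and 252 in the double-knockdown libraries, against 208, 192 and 262 in the control libraries. The 4 groups overlapped, and the double knockdown differed from control by 0.16 (SE 0.13) on the log2 scale (adjusted p = 0.578). E2F2, a close relative of E2F1, had 87.5, 109 and 94.2 in siELOVL2, 74.3, 78.5 and 48.2 in siELOVL5 and 90, 111 and 97.3 in double-knockdown libraries, against 60.8, 71 and 109.5 in controls. Control replicate 3 was as high as the highest knockdown libraries and the groups overlapped, but every double-knockdown library was above every siELOVL5 library (log2 difference 0.59 (SE 0.23), adjusted p = 0.199, not called). Without siELOVL5 replicate 3, the lowest E2F2 library, that difference was 0.37 (adjusted p = 0.41). At 48.2 to 111 normalized counts the counting error alone comes to 9.28% to 15.1% of an E2F2 value.

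E2F3, the third activator, was highest with the ELOVL5 siRNA alone. E2F3 had 599, 534 and 524 normalized counts in the siELOVL2 libraries, 658, 639 and 693 in the siELOVL5 libraries and 634, 562 and 486 in the double-knockdown libraries, against 527, 511 and 524 in the control libraries. The 3 siELOVL5 libraries were the highest 3 of all 12, and the difference from control was 0.35 (SE 0.10), with an adjusted p of 0.262, so that it was not called (0.32, adjusted p = 0.434, without siELOVL5 replicate 3). The double knockdown, which received the same siRNA, differed from control by 0.10 (SE 0.10, adjusted p = 0.645) and overlapped it. The interaction term, double minus siELOVL2 minus siELOVL5 plus control, was -0.33 (SE 0.14) for E2F3 (adjusted p = 0.996). No gene at all was called for that term (0% of 18648, with 522 genes at an unadjusted p under 0.05).

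Among the repressors that work with RBL1 and RBL2, E2F4 had the smallest standard error of the 10 members (0.08). E2F4 had 680.1, 599 and 631 normalized counts in the siELOVL2 libraries, 641, 674 and 608 in the siELOVL5 libraries and 595, 628 and 644 in the double-knockdown libraries, against 602, 637 and 553 in the control libraries. All groups overlapped, and the 95% interval of the difference from control was -0.08 to 0.27 for siELOVL2, -0.07 to 0.28 for siELOVL5 and -0.11 to 0.24 for the double knockdown on the log2 scale. The difference was not called for siELOVL5 (adjusted p = 0.715) or the double knockdown (adjusted p = 0.752).

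E2F5, its close relative, stood above control in every knockdown library. E2F5 had 149, 143 and 171 normalized counts in the siELOVL2 libraries, 96.2, 106 and 141 in the siELOVL5 libraries and 152, 163 and 152 in the double-knockdown libraries, against 83.2, 87.1 and 92.3 in the control libraries. All 9 knockdown libraries were above all 3 controls, the siELOVL2 and double-knockdown libraries lay close together, and siELOVL5 replicate 3 stood near them while siELOVL5 replicates 1 and 2 stayed near the controls. The log2 difference from control was 0.81 (SE 0.14) for siELOVL2, 0.37 (SE 0.14) for siELOVL5 and 0.82 (SE 0.14) for the double knockdown. Without siELOVL5 replicate 3 the siELOVL5 difference was 0.20. Adding the ELOVL2 siRNA to the ELOVL5 siRNA went with a further 0.46 (SE 0.14, and 0.62 without siELOVL5 replicate 3), whereas adding the ELOVL5 siRNA to the ELOVL2 siRNA gave 0.02 (SE 0.14). E2F5 was selected on these libraries, so these are descriptions without a p.

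The ratio of E2F5 to E2F4 normalized counts within a library, to be read between groups only, was 0.218, 0.238 and 0.271 in siELOVL2, 0.150, 0.157 and 0.232 in siELOVL5 and 0.255, 0.260 and 0.235 in double-knockdown libraries, against 0.138, 0.137 and 0.167 in controls. All siELOVL2 and double-knockdown ratios were above the control ratios, and siELOVL5 replicate 3 lay within their range. E2F5 shares 3083 bases of annotated gene span, introns included, with C8orf59 on the opposite strand. The strand setting of the counting was not given in the sources used here, which leaves reads of the pair possibly mixed. C8orf59 had 538, 544 and 541 normalized counts in siELOVL2, 447, 561 and 561 in siELOVL5 and 504, 526 and 590.4 in double-knockdown libraries, against 466, 479.7 and 485 in controls. Its difference from control was 0.18 (SE 0.10) for siELOVL2 and 0.18 (SE 0.10) for the double knockdown (adjusted p = 0.437 and 0.351). In normalized counts the mean of C8orf59 exceeded the control mean by 64.2 in siELOVL2 and 63.4 in double-knockdown cells, and that of E2F5 by 66.5 and 68, so both genes stood a similar number of counts from control in these groups. In siELOVL5 cells the differences were 46.3 for C8orf59 and 27 for E2F5. The part of shared reads in any of these differences was not tested.

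E2F6, the repressor that acts in a polycomb complex, had 211, 221 and 244 normalized counts in siELOVL2, 288, 254 and 303 in siELOVL5 and 250.4, 237 and 236 in double-knockdown libraries, against 229, 198 and 253 in controls. The siELOVL5 libraries were above the other 9, by a margin of about 1 normalized count for the closest pair (siELOVL5 replicate 2 and control replicate 3). The difference of siELOVL5 from control was 0.31 (SE 0.11, adjusted p = 0.388, not called, and 0.26 with adjusted p = 0.68 without siELOVL5 replicate 3), and that of the double knockdown was 0.09 (SE 0.11, adjusted p = 0.713). E2F3, E2F6 and CCNE2, described further on, had their highest group mean in siELOVL5 cells and lay nearer to control in the double knockdown, and none of these differences from control was called.

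Of its 10 listed polycomb partners (PCGF6, L3MBTL2, MGA, MAX, RING1, RNF2, CBX3, RYBP, YAF2 and EPC1), all were measured and 0 were called in any knockdown against control. RYBP, which bridges RING1 proteins to DNA-bound factors, had 430.2, 429 and 753 normalized counts in siELOVL5 and 328, 288 and 289 in siELOVL2 libraries. It was higher in siELOVL5 than in siELOVL2 cells by 0.78 (SE 0.17, adjusted p = 0.0319), and siELOVL5 replicate 3 held the highest value, without which the difference was 0.51 (adjusted p = 0.00804). The call was lost on leaving out replicate 2 of the controls, 1, 2 or 3 of siELOVL2, or 2 of the double knockdown (adjusted p = 0.0526 to 0.125).

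Of the atypical repressors, E2F8 stood below control in every knockdown. E2F8 had 86.7, 75.3 and 69.8 normalized counts in the siELOVL2 libraries, 91.8, 109 and 55.2 in the siELOVL5 libraries and 56.6, 71.6 and 88.9 in the double-knockdown libraries, against 127, 118 and 129.9 in the control libraries. All 9 knockdown libraries were below all 3 controls, and the lowest value was that of siELOVL5 replicate 3. The difference from control was -0.69 (SE 0.23) for siELOVL2, -0.60 (SE 0.23) for siELOVL5 (adjusted p = 0.434) and -0.80 (SE 0.23) for the double knockdown (adjusted p = 0.0701), so that E2F8 just missed the threshold and was not called. Without siELOVL5 replicate 3 the siELOVL5 difference was -0.32 (adjusted p = 0.809), and the double-knockdown difference stayed at -0.80 and was called (adjusted p = 0.00991). E2F8 lies within an annotated antisense gene, and the same limit on strand holds. With 44 to 136 reads estimated behind it, its counting error was 8.56% to 15% of a value.

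E2F7, the second atypical repressor, had a higher level per kb than E2F8 in every group. E2F7 had 610.5, 479 and 388 normalized counts in the siELOVL2 libraries, 609.9, 571 and 802 in the siELOVL5 libraries and 523, 487 and 305 in the double-knockdown libraries, against 711, 647 and 592 in the control libraries. The double-knockdown libraries were all below the controls, siELOVL2 overlapped them and siELOVL5 replicate 3 was the highest of the 12. The double knockdown differed from control by -0.60 (SE 0.21, adjusted p = 0.124) and from siELOVL5 by -0.61 (SE 0.21, adjusted p = 0.137), and neither was called. Double-knockdown replicate 3 carried much of both: without it they were -0.36 (adjusted p = 0.329) and -0.37 (adjusted p = 0.342). E2F7 also fell from replicate 1 to replicate 3 within the control and siELOVL2 groups, whereas in siELOVL5 replicate 3 was the highest. Without siELOVL5 replicate 3 the difference between the double knockdown and siELOVL5 was -0.47 (adjusted p = 0.273). That library had the highest E2F7 and the lowest E2F8 value of the 12, and its ratio of E2F8 to E2F7 normalized counts was 0.0688, against 0.178, 0.183 and 0.219 in controls.

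**Figure D2:**
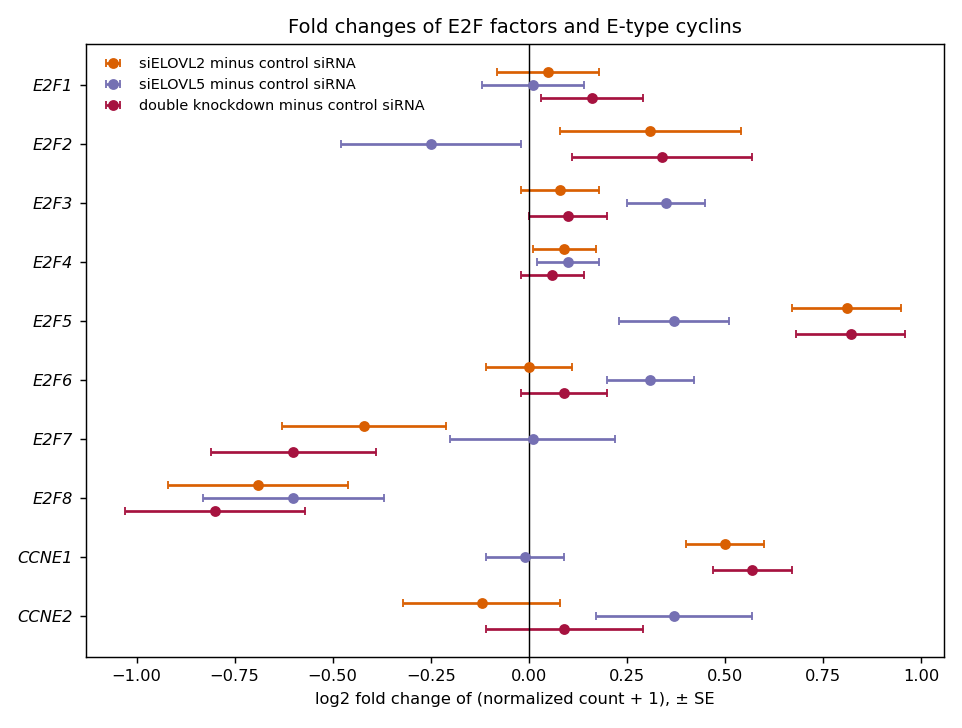
Log2 fold change of (normalized count + 1) against control siRNA for each gene, as point ± SE from the fit over all 12 libraries, with siELOVL2 above, siELOVL5 in the middle and the double knockdown below for each gene. E2F5 (0.81 and 0.82) and CCNE1 (0.50 and 0.57) lie to the right for siELOVL2 and the double knockdown, E2F8 lies to the left for all 3 knockdowns (-0.69, -0.60 and -0.80), and E2F5, CCNE2, E2F3 and E2F6 lie to the right for siELOVL5 (0.37, 0.37, 0.35 and 0.31).

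The E-type cyclins had different patterns. CCNE1 had 309, 291 and 342 normalized counts in the siELOVL2 libraries, 220.2, 231 and 208 in the siELOVL5 libraries and 331, 336 and 322 in the double-knockdown libraries, against 203, 214 and 250 in the control libraries. Every siELOVL2 and double-knockdown library was above every control and every siELOVL5 library, and the siELOVL5 libraries overlapped the controls. The log2 difference of CCNE1 from control was 0.50 (SE 0.10) for siELOVL2, -0.01 (SE 0.10) for siELOVL5 and 0.57 (SE 0.10) for the double knockdown, given without a p since CCNE1 was selected on these libraries. The double knockdown lay 0.58 (SE 0.10) above siELOVL5 and 0.07 (SE 0.10) above siELOVL2. CCNE1 was thus higher with the ELOVL2 siRNA whether or not the ELOVL5 siRNA was present, and the spread within the double knockdown (SD 6.89) was smaller than the gap to the controls.

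CCNE2 had 68.3, 57.6 and 63.7 normalized counts in the siELOVL2 libraries, 104, 92.3 and 72.3 in the siELOVL5 libraries and 95.3, 74.6 and 54.2 in the double-knockdown libraries, against 63.2, 67.8 and 74.6 in the control libraries. The double knockdown spanned the range of the other groups, and its difference from control was 0.09 (SE 0.20, adjusted p = 0.867). For siELOVL5 against control it was 0.37 (SE 0.20, adjusted p = 0.585, not called, and 0.51 with adjusted p = 0.643 without siELOVL5 replicate 3). Every siELOVL5 library was above every siELOVL2 library, by 0.48 (SE 0.20, adjusted p = 0.241, not called; 0.63 with adjusted p = 0.129 without siELOVL5 replicate 3), which is the direction opposite to CCNE1. CCNE2 shares 1977 bases of gene span with INTS8 and 912 with NDUFAF6 on the other strand, introns included, and its low counts carry a counting error of 9.30% to 14.2%. Within a library the ratio of CCNE1 to CCNE2 normalized counts was 4.52, 5.05 and 5.37 in siELOVL2, 2.12, 2.50 and 2.88 in siELOVL5 and 3.47, 4.5 and 5.94 in double-knockdown libraries, against 3.22, 3.15 and 3.35 in controls. The siELOVL2 ratios were all above, and the siELOVL5 ratios all below, the control ratios, and the double knockdown had the widest spread.

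Comparisons among the knockdowns gave 1 called member each where siELOVL5 was one side. For the double knockdown against siELOVL5, 2.77% of all tested genes and 1 member, CCNE1, were called, and for siELOVL5 against siELOVL2, 3.01% of genes and 1 member, CCNE1 as the lower one in siELOVL5 cells. CCNE1 was selected on these libraries, so nothing is read from these 2 counts. Without double-knockdown replicate 2 the first count was 0 and without siELOVL5 replicate 3 it was 2, and the second count was 0 without siELOVL2 replicate 1 or 3 or siELOVL5 replicate 1 and 2 without siELOVL5 replicate 3. For the double knockdown against siELOVL2 only 0.059% of genes and 0 members were called, and 0 members had an unadjusted p under 0.05. Member differences in that comparison ran from -0.18 for E2F7 to 0.21 for CCNE2. With 3 libraries a group, the intervals of these differences were wide: the 95% interval was -0.21 to 0.14 for E2F4, the narrowest, and -0.61 to 0.39 for E2F8.

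CDK2, the kinase that both E-type cyclins activate, was lower in the double knockdown, where CCNE1 was higher. CDK2 had 176, 204 and 158 normalized counts in the siELOVL2 libraries, 233, 219.9 and 163 in the siELOVL5 libraries and 135, 153 and 163 in the double-knockdown libraries, against 249.6, 267 and 245 in the control libraries. Every knockdown library was below every control, also in siELOVL5 cells, where CCNE1 stood near control (-0.01, SE 0.10). The CDK2 difference from control was -0.32 (SE 0.14, adjusted p = 0.514, not called) for siELOVL5 and -0.75 (SE 0.14, adjusted p = 0.0103) for the double knockdown. This call was lost without control replicate 2 (adjusted p = 0.057) or double-knockdown replicate 1 (adjusted p = 0.0509). Of the 13 listed genes around cyclin E and CDK2, 12 were measured, and CDK2 was the 1 called in the double knockdown, with 0 called higher. FBXW7, which marks cyclin E protein for destruction, had 321, 311 and 297 normalized counts in the double knockdown against 298, 284 and 248 in controls (difference 0.17 (SE 0.13), adjusted p = 0.54). The 12 genes had a median difference of 0.04 in the double knockdown, against 0.02 over all tested genes. SKP1, the linker of the ligase complexes that contain FBXW7 or SKP2, was higher in double-knockdown than in siELOVL5 cells by 0.42 (SE 0.10, adjusted p = 0.039) and lower in siELOVL5 than in siELOVL2 cells by -0.46 (SE 0.10, adjusted p = 0.0267). The first SKP1 call was lost on leaving out replicate 1, 2 or 3 of the controls, 1, 2 or 3 of siELOVL2, 1 of siELOVL5, or 1, 2 or 3 of the double knockdown (adjusted p = 0.053 to 0.139), and the second on leaving out replicate 1, 2 or 3 of siELOVL2 (adjusted p = 0.074 to 0.097).

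TFDP1, the dimer partner of E2F1 to E2F6, had the smallest adjusted p of the genes listed around the E2F factors in the double knockdown. TFDP1 had 713, 698 and 721 normalized counts in the siELOVL2 libraries, 1093, 1060.5 and 717 in the siELOVL5 libraries and 630.5, 649.6 and 575 in the double-knockdown libraries, against 1078, 1084 and 1149 in the control libraries. The siELOVL2 and double-knockdown libraries were all below the controls, and siELOVL5 replicate 3 stood with them while siELOVL5 replicates 1 and 2 stood with the controls. TFDP1 fell in the double knockdown by 0.84 on the log2 scale (SE 0.13, adjusted p = 0.00318), a call kept under every alternative tried, and differed by -0.63 (SE 0.13) in siELOVL2 cells. It was lower in the double knockdown than in siELOVL5 cells by -0.61 (SE 0.13, adjusted p = 0.0263), a call lost on leaving out replicate 1 or 2 of siELOVL5, or 1, 2 or 3 of the double knockdown (adjusted p = 0.072 to 0.0912). TFDP2, the second dimer partner, had a difference of -0.10 (SE 0.13) in the double knockdown (adjusted p = 0.764).

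The list of RB family genes, dimer partners and D-type cyclins with their kinases and inhibitors held 14 genes, of which 10 were tested. In the double knockdown 3 were called lower and 0 higher, with a median of -0.32 against 0.02 over all tested genes. Besides TFDP1 these were CCND1, the cyclin that starts RB1 phosphorylation, at -0.44 (SE 0.11, adjusted p = 0.0373), and its kinase CDK4 at -0.31 (SE 0.08, adjusted p = 0.0417). CCND1 had 2441, 2655 and 2471 normalized counts in the siELOVL2 libraries, 1745, 1901 and 2086 in the siELOVL5 libraries and 1994, 1619.9 and 2257 in the double-knockdown libraries, against 2659, 2652 and 2556 in the control libraries. All 6 libraries with the ELOVL5 siRNA were below the other 6, and the siELOVL5 group itself was not called against control (-0.46 (SE 0.11), adjusted p = 0.16). The CCND1 call was lost on leaving out replicate 1, 2 or 3 of the controls, 2 or 3 of siELOVL2, 2 of siELOVL5, or 1 or 2 of the double knockdown (adjusted p = 0.0507 to 0.127), and the CDK4 call on leaving out replicate 1, 2 or 3 of the controls, 2 or 3 of siELOVL2, 2 of siELOVL5, or 1, 2 or 3 of the double knockdown (adjusted p = 0.0537 to 0.155). CDKN2A and CDKN2B, inhibitors of that kinase, and CCND2 were listed at 0 in all 12 libraries.

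RBL2, the pocket protein that E2F4 and E2F5 recruit, had 988, 1126 and 1085 normalized counts in siELOVL2, 807, 897 and 727 in siELOVL5 and 1074, 1006 and 1112 in double-knockdown libraries, against 942, 943 and 937 in controls. It was higher in the double knockdown than in siELOVL5 cells by 0.40 (SE 0.08, adjusted p = 0.0268) and lower in siELOVL5 than in siELOVL2 cells by -0.40 (SE 0.08, adjusted p = 0.0267), the order seen for E2F5 and CCNE1, but it was not called against control. The first call was lost on leaving out replicate 1 of siELOVL5, or 1, 2 or 3 of the double knockdown (adjusted p = 0.0638 to 0.0873), and the second on leaving out replicate 2 or 3 of siELOVL2, or 1 of siELOVL5 (adjusted p = 0.07 to 0.128). RB1 had a difference of -0.32 (SE 0.09) in the double knockdown (adjusted p = 0.0575). Of 8 genes of the DREAM complex core and its B-MYB and FOXM1 partners, which bind E2F4 and E2F5 or their target promoters, 1 was called in the double knockdown, LIN37, at -1.14 (SE 0.28, adjusted p = 0.0363). LIN37 had only 10.3, 15.6 and 9.25 normalized counts in the double knockdown against 27.9, 21 and 31.3 in controls, and its call was lost on leaving out replicate 1, 2 or 3 of the controls, 2 or 3 of siELOVL2, or 1 or 3 of the double knockdown (adjusted p = 0.0515 to 0.121).

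**Figure D3:**
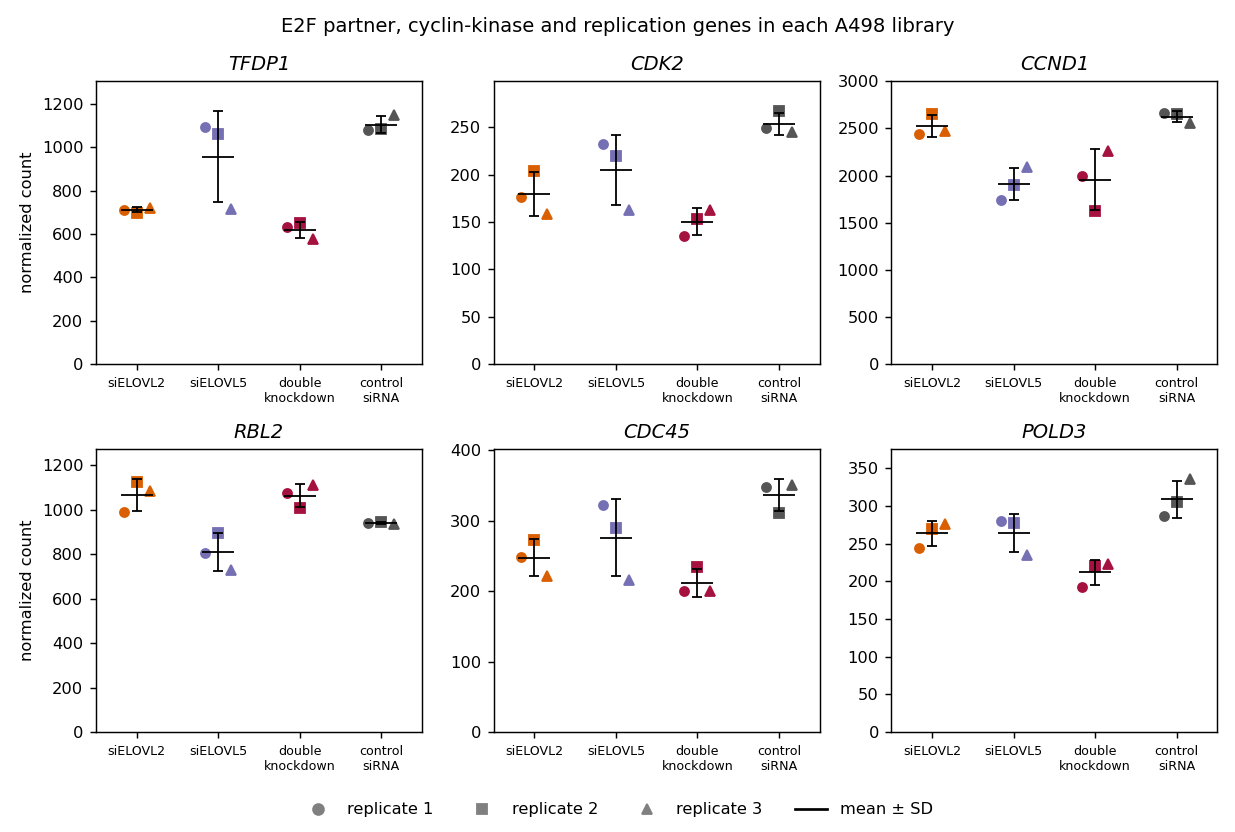
Normalized counts per library of the dimer partner TFDP1, the kinase CDK2, cyclin D1 (CCND1), the pocket protein RBL2 and the replication genes CDC45 and POLD3, with siELOVL2, siELOVL5, double knockdown and control siRNA from left to right; symbols mark the replicate and bars the mean ± SD (n = 3). TFDP1 is lower in all siELOVL2 and double-knockdown libraries and in siELOVL5 replicate 3, whereas CCND1 is lower in all libraries that received the ELOVL5 siRNA.

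The replication genes that E2F factors drive stood below control in the knockdowns, while E2F5 stood above it. CCNE1 stood above control in siELOVL2 and double-knockdown cells but not in siELOVL5 cells (-0.01, SE 0.10). This contrast with the replication genes is the one by which E2F5 and CCNE1 were chosen. Of 50 replication genes, all tested, 49 were below control in siELOVL2 cells (median -0.26), 50 in siELOVL5 cells (median -0.33) and 49 in double-knockdown cells (median -0.38), against medians of 0.02, 0.00 and 0.02 over all tested genes. The fall of replication genes was known at that choice, so these counts and the calls below are a description and no independent support. Few passed the test one by one. In the double knockdown 3 fell and 0 rose: CDC45, a helicase subunit, at -0.66 (SE 0.14, adjusted p = 0.0193), GINS2, of the same helicase, at -0.47 (SE 0.11, adjusted p = 0.0359), and POLD3, a DNA polymerase delta subunit, at -0.54 (SE 0.11, adjusted p = 0.0121). CDC45 had 200.5, 235 and 201 normalized counts in the double knockdown against 348, 310.3 and 350.2 in controls, without overlap. The 3 called of 50 stand against 4.42% of all tested genes called for the double knockdown. In siELOVL5 cells 0 were called. An unadjusted p under 0.05 was found for 16 of the 50 in siELOVL2, 25 in siELOVL5 and 29 in double-knockdown cells. The shares of all tested genes were 13.7%, 9.56% and 18.8%. In bulk RNA, fewer cells in S phase and less transcript per cell cannot be told apart.

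These calls depended on single libraries. The CDC45 call was lost on leaving out replicate 1 or 3 of the controls, or 1 or 3 of the double knockdown (adjusted p = 0.0549 to 0.0824), the GINS2 call on leaving out replicate 2 or 3 of the controls, 2 of siELOVL2, or 1, 2 or 3 of the double knockdown (adjusted p = 0.0592 to 0.136), and the POLD3 call on leaving out replicate 2 or 3 of the controls, or 1 of the double knockdown (adjusted p = 0.0524 to 0.059). The number of the 50 called lower in the double knockdown was 28 without siELOVL5 replicate 3, 1 without control replicate 2 or double-knockdown replicate 3, and 0 without control replicate 3 or double-knockdown replicate 1. Calls over all tested genes for that comparison also rose without siELOVL5 replicate 3, from 825 to 1779. In siELOVL5 replicate 3 the median of the 50 genes stood at -0.77 relative to the control mean, against -0.08 and -0.17 in replicates 1 and 2, so that without it the siELOVL5 median was -0.13 with 43 of 50 below control. Of 20 mitotic genes that the DREAM complex silences, such as CCNB1 and PLK1, all 20 were below control in each knockdown, with medians of -0.44, -0.41 and -0.59 for siELOVL2, siELOVL5 and the double knockdown, and 0 were called. Of the 20, 3, 2 and 11 had an unadjusted p under 0.05, against 13.7%, 9.56% and 18.8% of all tested genes. Without siELOVL5 replicate 3, where calls over all tested genes rose to 1779, 9 of the 20 were called lower in the double knockdown. Their median in siELOVL5 replicate 3 was -1.15 and in double-knockdown replicate 3 was -1.03 relative to the control mean, the 2 lowest of the 12 libraries. Replicate 3 was also the lowest of its group in siELOVL2 (-0.22, -0.36 and -0.70) and in control libraries (0.16, 0.04 and -0.19), so a low replicate 3 recurred in every group.

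Set against this list library by library, the members had different patterns. In siELOVL5 replicate 3, which had the lowest replication gene median, E2F8 was lowest and E2F5 was high, whereas CCNE1 (208 normalized counts) stayed within the control range. Within the siELOVL5 group, replicate 3 had the lowest value of E2F1, E2F2, E2F4, E2F8, CCNE1 and CCNE2 and the highest of E2F3, E2F5, E2F6 and E2F7. The CCNE1 difference between siELOVL5 and control was 0.03 without it. Over the 12 libraries E2F5 and CCNE1 had a Pearson correlation of 0.83, which was 0.18 after the group means had been subtracted, E2F5 and E2F8 one of -0.82 (-0.68 within groups), E2F7 and CCNE1 one of -0.77 (-0.38 within groups), and E2F1 and E2F2 one of 0.74 (0.80 within groups). The pair with the highest correlation within groups was E2F3 and E2F7 (0.90, and 0.54 over the 12 libraries). These are descriptions over libraries that share 4 treatments and 1 normalization, and no correlation was taken without siELOVL5 replicate 3.

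**Figure D4:**
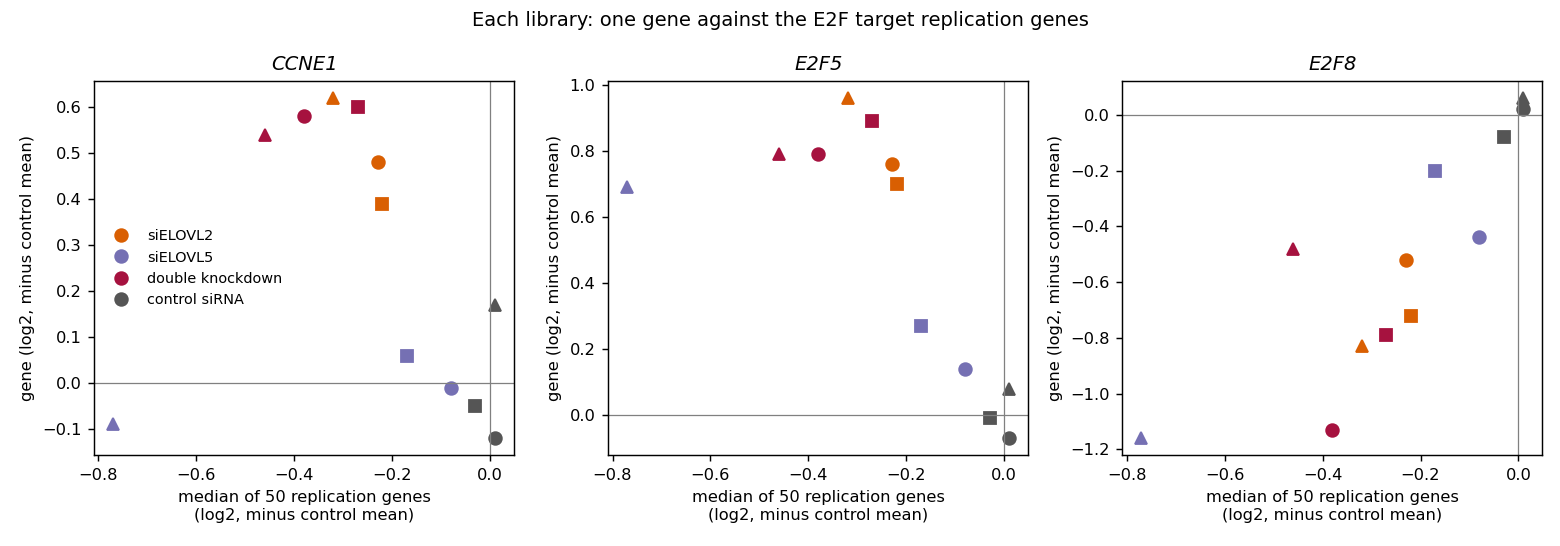
Each of the 12 libraries by the median of 50 replication genes (x axis) and by CCNE1, E2F5 or E2F8 (y axis), both as log2 difference from the control mean; circles, squares and triangles mark replicates 1, 2 and 3. The purple triangle at the far left is siELOVL5 replicate 3 (replication median -0.77). There CCNE1 lies at the control level, E2F5 (0.69) just below the siELOVL2 libraries (0.70 to 0.96) and E2F8 at its lowest.

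The genes most like a member over the 12 libraries, among the 9323 tested genes whose mean reached the median of all tested genes, were taken as the 4 with the highest Pearson correlation of log2 values. For E2F5 these were NEU1 (0.966), KDM5B (0.960), NBR1 (0.960) and GHITM (0.959). NEU1, which encodes the lysosomal sialidase, had 864, 809 and 803 normalized counts in siELOVL2, 529, 555 and 703 in siELOVL5 and 899, 813 and 855 in double-knockdown libraries, against 457, 462 and 508 in controls, and like E2F5 it was highest within the siELOVL5 group in replicate 3. For CCNE1 they were CLPX (0.974), SNX17 (0.970), ALDH3B1 (0.969) and MAPK3 (0.968), and for E2F1 they were NDOR1 (0.871), NARS2 (0.870), EIF3K (0.863) and STRA13 (0.852). The lists shared no gene. After the group means had been subtracted, which leaves differences between replicates, E2F5 was most like ZNF37A (0.964), KIAA1430 (0.958), ZNF518B (0.946) and PFKFB2 (0.943). Like E2F5, these 4 genes were highest within the siELOVL5 group in replicate 3, for example ZNF37A at 363, 371 and 534 normalized counts. The part of that library in these correlations was not tested. CCNE1 was then most like PHF2 (0.910), PACSIN3 (0.878), ZFYVE21 (0.870) and SLC12A8 (0.855), and E2F1 most like STRA13 (0.936), RAB31 (0.934), DNAJB1 (0.920) and FAM120C (0.907). None of the 4 genes most like E2F5 or CCNE1 over all libraries was among the 4 most like it within groups.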

How the data were processed

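RNA of 12 A498 libraries was sequenced on an Illumina instrument as paired-end 36-base reads, with 3 biological replicates in each of 4 groups, per the labels' protocols. The table deposited by the authors holds a normalized signal for each gene in each library, and the values show quantile normalization of read counts by the authors: every column holds the same set of values, with a total of 8.525 M and a maximum of 61280. The aligner, counting tool, strand setting, annotation and build were not given in the sources used here. Depth was estimated from breaks in the order of tied low values, a procedure tested on simulated data, and intervals from it cover counting error only.

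The fit was made on log2(value + 1) with limma 3.58.1 (R 4.3.3). A gene was tested if 3 or more of the 12 libraries reached a value of 1, with 4 group means, 8 residual degrees of freedom, an intensity trend and Benjamini-Hochberg adjustment per comparison at 0.05. Fold changes are on that scale and understate changes of low genes. No count test was run, since the values are not whole reads. The members and lists were chosen with earlier results of these data known. All members are named, as were up to 4 called genes per list and comparison by smallest p and the 4 genes most like 3 of the members. FBXW7, TFDP2, RB1, the neighbouring genes and the CCND1 value of siELOVL5 against control fall outside that rule and were named after their values were seen. Of the listed genes, CKS1B, RBL1 and PECAM1 were not analysed here, and 1 kidney marker is not reported here. E2F5, E2F8 and CCNE2 had no entry in the promoter table used. Alternatives changed the pseudocount, filter, trend, scaling (trimmed mean of M values), library weights, replicate block, samples fitted and each library in turn, and an alternative added after the data were seen counted called genes of each list under all of these settings.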

Additional observations from a re-analysis of the deposited data

How the results depend on the processing

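Against control, E2F5 stayed higher and E2F8 lower in all 3 knockdowns and CCNE1 higher in siELOVL2 and double-knockdown cells under every alternative and with each library left out, and TFDP1 stayed called in the double knockdown. Without the intensity trend the calls of CCND1, CDK4, CDC45 and GINS2 in the double knockdown, and those of SKP1, RBL2, TFDP1 and RYBP between knockdowns, were lost (adjusted p = 0.0595 to 0.118). With only the groups compared, these calls between knockdowns (0.154 to 0.226), CCND1 (0.0529) and LIN37 (0.0638) were lost, and with no filter on low values CCND1 (0.0527), LIN37 (0.0579) and SKP1 in the double knockdown against siELOVL5 (0.0527). Counts of called genes were less stable. With the replicate block they were 861 for siELOVL2 against control (254 without it), 99 for siELOVL5 against control (26), 1866 for the double knockdown against control (825), 1368 for the double knockdown against siELOVL5 (516) and 1317 for siELOVL5 against siELOVL2 (562), and 2 members were called in the double knockdown against siELOVL5. The replicate numbers pair no samples by the labels, and same-numbered libraries had correlations of 0 to 0.21 over 18 pairs, 9 of them over 0.1. In 16 of the 18 the best match carried the same number, which is a hint of pairing from the data and not from the design. E2F8 was called in the double knockdown with the replicate block (adjusted p = 0.0496), library weights (0.00585) or only the groups compared (0.0339), and 13 of the 50 replication genes and 16 of the 20 mitotic genes were then called with the block. In the same order of comparisons, counts without the intensity trend were 101, 18, 413, 200 and 213, with 21 for the double knockdown against siELOVL2 (11), 9 for the interaction (0), and 1 and 0 called members for siELOVL2 against control and siELOVL5 against siELOVL2. With library weights they were 1569, 145, 2241, 1251 and 1643, with 27 for the double knockdown against siELOVL2, and 2 and 4 members for the double knockdown and siELOVL2 each against siELOVL5. With only the groups compared they were 572, 8, 1122, 45 and 92, with 1 for the double knockdown against siELOVL2 and 0 members in both comparisons with siELOVL5. That setting leaves fewer samples and tests other genes, and for the rest the cause was not tested. Library weights also turned round 4 differences near 0: E2F7 to -0.11 and E2F1 to 0.08 for siELOVL5 against control and against siELOVL2, E2F4 to 0.00 for the double knockdown against siELOVL2, and the E2F7 interaction to 0.06.

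With each library left out in turn, the count of called genes was 63 to 829 for siELOVL2, 9 to 41 for siELOVL5 and 323 to 1779 for the double knockdown against control. It was 156 to 789 for the double knockdown against siELOVL5, 2 to 16 for it against siELOVL2 and 168 to 714 for siELOVL5 against siELOVL2. The highest count came without siELOVL5 replicate 3 in each. Called members were 0 to 3 for siELOVL2 against control, 0 to 2 for the double knockdown against siELOVL5 and 0 to 2 for siELOVL5 against siELOVL2. Differences near 0 changed sign for E2F1 (-0.04 to 0.19) and E2F6 (-0.10 to 0.08) in siELOVL2, E2F1 (-0.08 to 0.14), E2F7 (-0.14 to 0.11) and CCNE1 (-0.07 to 0.08) in siELOVL5, and CCNE2 (-0.10 to 0.30) in the double knockdown against control. They did so for E2F2 (-0.05 to 0.12), E2F3 (-0.08 to 0.11), E2F4 (-0.08 to 0.02), E2F5 (-0.04 to 0.09), E2F7 (-0.34 to 0.06) and E2F8 (-0.27 to 0.05) in the double knockdown against siELOVL2. In siELOVL5 against siELOVL2 they did so for E2F1 (-0.11 to 0.07), E2F4 (-0.03 to 0.06) and E2F8 (-0.11 to 0.37), and in the interaction for E2F1 (-0.04 to 0.19), E2F7 (-0.35 to 0.05) and CCNE2 (-0.35 to 0.05).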
